A study of Mus musculus with 8 samples.

Results

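Genes that restrain plasticity of the visual cortex, the nicotinic acetylcholine receptor subunits that some of them act on, and Lypd6 were followed in layer IV. The set from the mouse visual cortex was defined by 8 gene symbols. Lynx1, Rtn4, Rtn4r and Pirb are brakes on the critical period, and Chrna4, Chrna7 and Chrnb2 are receptor subunits. Lypd6, a relative of Lynx1, is not counted as a brake here. Each gene was represented by its transcript with the highest total count over 6 libraries. Of the 8 symbols, 7 had a row among the 34980 genes of the files, and all 7 were among the 15841 genes that passed a filter on low counts. The layer was dissected by hand from B6D2 mice, a hybrid stock, and total RNA was sequenced from 3 groups of 2 libraries: Otx2 +/- mice at postnatal day 30 (P30), Otx2 +/+ mice at P100 and Otx2 +/+ mice at P30. The design text writes the heterozygous genotype as Otx2 +/GFP. Tissue of 4 mice was pooled per condition. Nothing in the labels tells whether the duplicates of a condition are separate pools, and p-values therefore reflect a spread between libraries that may be technical. The 2 heterozygous P100 samples were not analysed here.

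Vision shapes the visual cortex most readily during a juvenile critical period, and several molecules are known to hold this plasticity down afterwards. Lynx1, of the Ly6/uPAR family, is a small lipid-anchored protein that binds nicotinic receptors, and mice without Lynx1 keep ocular dominance plasticity as adults. Lypd6 is of the same family. Nogo, the product of Rtn4, limits neurite growth through the Nogo receptor (Rtn4r) and through PirB (Pirb), which also binds MHC class I molecules. Nicotinic receptors are pentameric cation channels: the α4 and β2 subunits (Chrna4, Chrnb2) form the main high-affinity type of the brain, and α7 (Chrna7) forms a fast, calcium-permeable type on its own. Otx2 is a homeoprotein secreted by the choroid plexus that parvalbumin interneurons import, and it is known to time the critical period.

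Gene-level counts totalled 11016841 to 15308781 per library. Levels are given as CPM (counts scaled to the total of a library), with libraries scaled by TMM. Layer 4 markers were present in every library, with Rorb, a nuclear receptor gene of layer 4, at 497 to 581 CPM. The 5 layer 6 and subplate markers summed to 45.2 to 54.0 CPM, most of it from Tle4 (36.1 to 38.5 CPM). Over the 4 tested ones, the median log2 difference was -0.49 for Otx2 +/+ P100 over P30 and 0.25 for Otx2 +/- over Otx2 +/+ at P30. It was 0.83 for Otx2 +/- P30 over Otx2 +/+ P100, where 1 was called higher, so an even sum does not mean even layer 6 content. The 4 layer 5 markers summed to 149 and 136 CPM in Otx2 +/- P30 libraries, 125 and 78.7 CPM in Otx2 +/+ P100 libraries and 107 and 102 CPM in Otx2 +/+ P30 libraries, so that both Otx2 +/- libraries lay above the other 4. Otx2 was at 0 in every library except Otx2 +/- P30 replicate 2, where it stood at 4.75 CPM beside 584 CPM of Ttr, an abundant choroid plexus transcript, so its own level cannot test the genotype labels. Xist, made from the inactive X in female cells, had 785 and 924 CPM in Otx2 +/- P30 libraries and 0.26 to 0.64 CPM in the 4 Otx2 +/+ libraries, so that sex and genotype cannot be told apart in any comparison of Otx2 +/- with Otx2 +/+ tissue.

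The 7 genes spanned a wide range of levels. Per kilobase of transcript, the scale on which genes can be compared, Rtn4 averaged 167 CPM, above 98.8% of the tested genes with a known length. Lynx1 averaged 119 CPM per kilobase, above 97.9% of them. Rtn4r, the receptor, stood lower, at 29.4 CPM per kilobase and above 85.6%. The 6 libraries of Rtn4 (157 to 173), of Lynx1 (105 to 128) and of Rtn4r (26.9 to 33.6 CPM per kilobase) formed separate ranges. The other 4 genes lay near the median of 7.40 CPM per kilobase: Chrnb2 averaged 8.71, Lypd6 averaged 7.75, Chrna7 averaged 6.38 and Chrna4 averaged 6.22 CPM per kilobase. Among these, only the libraries of Chrnb2 (7.54 to 9.09) and of Chrna7 (4.91 to 7.16 CPM per kilobase) did not overlap, so the order of the other neighbours is not resolved.

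**Figure D1:**
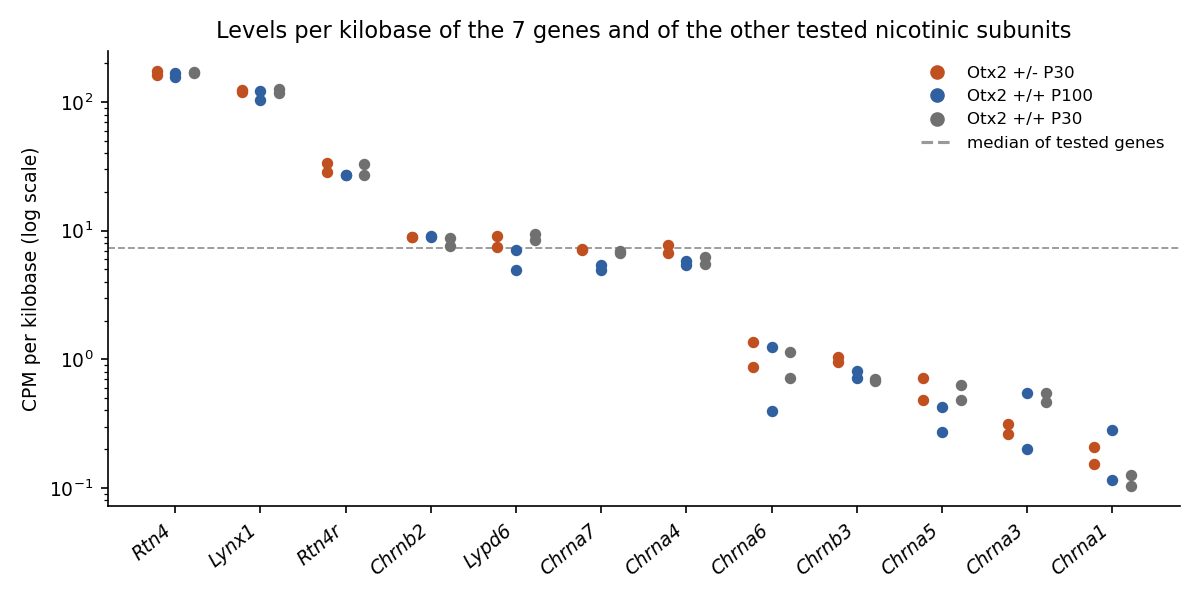
CPM per kilobase of transcript (log axis) of the 7 genes and of the 5 other nicotinic subunits that passed the filter, with 1 point per library in Otx2 +/- P30, Otx2 +/+ P100 and Otx2 +/+ P30 tissue. Rtn4 and Lynx1 lie above 100 CPM per kilobase, Chrnb2, Chrna7 and Chrna4 lie near the dashed median of 7.40, and the 5 other subunits average 0.954 or less.

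Of the 16 nicotinic subunit genes in the files, 8 passed the filter. Chrna4, Chrna7 and Chrnb2 were the 3 highest of them per kilobase. The 5 others that passed averaged 0.165 to 0.954 CPM per kilobase, all below the lowest library of the 3. The 8 subunits that did not pass had between 0 and 36 counts over the 6 libraries.

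The prototoxin gene Lynx1 (ENSMUSG00000022594, chr15:74747852-74753046, minus strand, mm10) had 498 and 481 CPM in Otx2 +/- P30 libraries, 421 and 489.8 CPM in Otx2 +/+ P100 libraries and 478 and 513 CPM in Otx2 +/+ P30 libraries. All 3 groups overlapped, and the lowest value belonged to P100 replicate 1. Its relative Lypd6 (ENSMUSG00000050447, chr2:50066429-50193569, plus strand), known to act on nicotinic receptors and on Wnt signalling, had 32.9 and 27.1 CPM in Otx2 +/- P30 libraries, 25.7 and 18.0 CPM in Otx2 +/+ P100 libraries and 34.1 and 30.7 CPM in Otx2 +/+ P30 libraries. Both P100 libraries of Lypd6 lay below all 4 P30 libraries, and the Otx2 +/- and Otx2 +/+ P30 libraries overlapped.

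The Nogo gene Rtn4 (ENSMUSG00000020458, chr11:29692947-29744331, plus strand) had 800.0 and 750.5 CPM in Otx2 +/- P30 libraries, 723 and 782 CPM in Otx2 +/+ P100 libraries and 778 and 793 CPM in Otx2 +/+ P30 libraries. Its receptor gene Rtn4r (ENSMUSG00000043811, chr16:18127642-18152408, plus strand) had 55.0 and 65.1 CPM in Otx2 +/- P30 libraries, 52.2 and 53.0 CPM in Otx2 +/+ P100 libraries and 52.3 and 63.9 CPM in Otx2 +/+ P30 libraries. The 3 groups overlapped for Rtn4. For Rtn4r, the P100 libraries lay at the low end, below both Otx2 +/- libraries, while the ranges of P100 and P30 in Otx2 +/+ tissue overlapped.

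No row carried the symbol Pirb. The Ensembl identifier that GENCODE M21 names Pirb (ENSMUSG00000058818, chr7:3711409-3720391, minus strand) stood in the files under the symbol Lilrb3. Its counted transcript had 3 and 1 counts in Otx2 +/- P30 libraries, 1 and 2 counts in Otx2 +/+ P100 libraries and 0 and 3 counts in Otx2 +/+ P30 libraries. These 10 counts in all are too few for a comparison, no library exceeded the limit of 3 counts that a count of 0 allows (counting error only), and the gene did not pass the filter. The other PirB-type receptor genes in the files were as sparse, with 0 counts of Pira2 and 2 counts of Lilrb4 over the 6 libraries. Of the markers of myeloid cells, which carry PirB, the integrin gene Itgam stood at 15.7 to 22.1 CPM and Ptprc at 3.95 to 6.30 CPM. Lyz2 stood at 0.94 to 1.73 CPM and Cd14 at 0.62 to 2.10 CPM, while the neutrophil genes S100a8 and S100a9 stood at 0.26 CPM or less.

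The subunit gene Chrna4 (ENSMUSG00000027577, chr2:181018380-181043546, minus strand) had 35.3 and 30.5 CPM in Otx2 +/- P30 libraries, 24.8 and 26.4 CPM in Otx2 +/+ P100 libraries and 28.4 and 25.2 CPM in Otx2 +/+ P30 libraries. Both Otx2 +/- libraries lay above all 4 Otx2 +/+ libraries, which overlapped between the ages. Chrna7 (ENSMUSG00000030525, chr7:63098692-63212569, minus strand) had 14.9 and 14.7 CPM in Otx2 +/- P30 libraries, 10.2 and 11.2 CPM in Otx2 +/+ P100 libraries and 14.5 and 14.0 CPM in Otx2 +/+ P30 libraries. The 3 groups of Chrna7 were separate, with a wide gap below the P30 libraries of either genotype and a narrow one between them. Chrnb2 (ENSMUSG00000027950, chr3:89746195-89764632, minus strand) had 56.7 and 57.4 CPM in Otx2 +/- P30 libraries, 57.6 and 58.2 CPM in Otx2 +/+ P100 libraries and 56.5 and 48.2 CPM in Otx2 +/+ P30 libraries. The groups of Chrnb2 did not overlap either, although 1 of the P30 libraries alone was low. The counted transcript of Chrnb2 shares 15.8% of its exon bases with Adar on the opposite strand, and its level is uncertain to that extent because whether counting used strand is not known here. The other 6 genes share no exon bases with a neighbour.

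**Figure D2:**
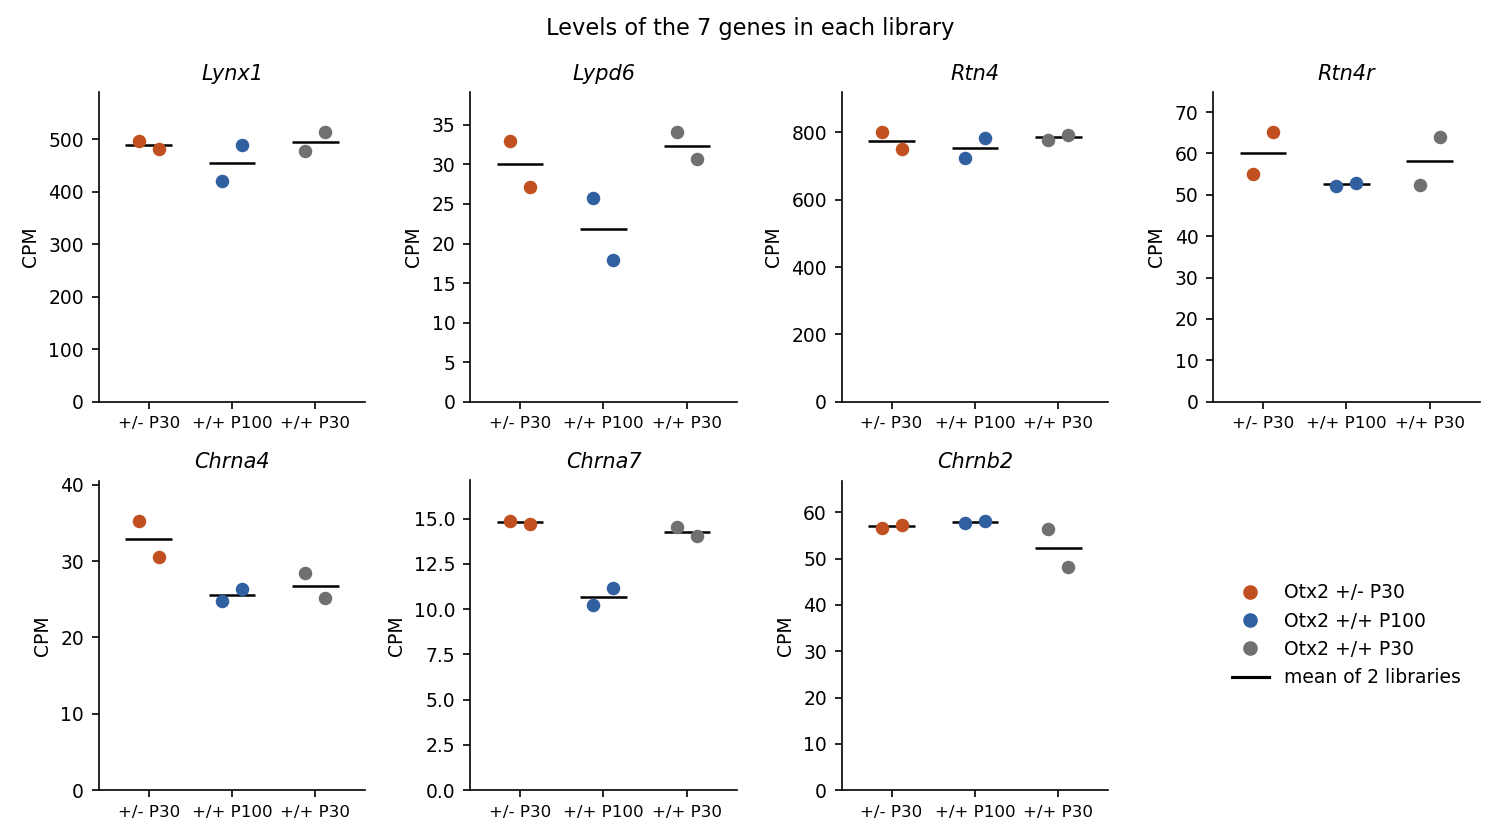
CPM of each of the 7 genes in the 2 libraries (points) of Otx2 +/- P30, Otx2 +/+ P100 and Otx2 +/+ P30 tissue, with the mean of each group as a line and each axis starting at 0. Lypd6 and Chrna7 are lowest at P100, at 21.8 and 10.7 CPM on average, Chrna4 is highest in Otx2 +/- tissue at 32.9 CPM, and Lynx1 and Rtn4 overlap between all groups.

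The first comparison set Otx2 +/+ cortex at P100, after the critical period, against Otx2 +/+ cortex at P30, within it. Of the 7 genes, 1 passed the test (edgeR quasi-likelihood test, Benjamini-Hochberg adjusted p under 0.05 over all 15841 genes), against 7.54% of all tested genes called in either direction and 4.54% called lower. Lypd6 fell to 21.8 ± 5.48 CPM at P100, against 32.4 ± 2.40 CPM at P30 (SD, n = 2 libraries each), a log2 difference of -0.56 (SE 0.15, adjusted p = 0.0427) or 1.47-fold lower. In a bulk sample, fewer cells that carry a transcript and less of it per cell cannot be told apart. The adjusted p of Lypd6 was 0.296 without P100 replicate 2, where the log2 difference was -0.33, and 0.161 and 0.0765 without P30 replicates 1 and 2. It was 0.0769 with counts summed over transcripts. In the authors' deposited table, the same transcript had a log2 fold change of -0.57 and an adjusted p of 0.414.

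Chrna7, whose α7 receptors are the calcium-permeable type, was next, at 10.7 ± 0.69 CPM at P100 and 14.3 ± 0.33 CPM at P30 (SD, n = 2 each). Its log2 difference of -0.42 (SE 0.14) had an adjusted p of 0.0789, above the threshold of 0.05, and it was not called. Lynx1, Rtn4, Rtn4r and Chrna4 had log2 differences of -0.15 to -0.06, and Chrnb2 had 0.15 (adjusted p 0.374 to 0.801). For these 5 genes, the 95% intervals reached no further than 1.31-fold lower and 1.28-fold higher at P100. Over the 7 genes, 2 had an unadjusted p under 0.05, against 22.7% of tested genes, and 3 had groups that did not overlap, against 51.2%. The median log2 difference of the 7 was -0.12, and that of all tested genes was 0.00.

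Transcripts of other kinds moved with age in the same libraries. Each of 6 activity-regulated markers fell at P100, and their sum was 457 and 510.3 CPM at P100 against 2251 and 2804 CPM at P30. Of 9 myelin markers, 8 fell, with sums of 1794 and 1554 CPM at P100 against 3169.6 and 3059 CPM at P30. All 4 oligodendrocyte precursor markers fell as well, with sums of 129 and 107 CPM against 203 and 199 CPM. None of 7 markers of interneurons with nicotinic receptors (Lamp5, Ndnf, Vip, Reln, Htr3a, Cck and Sncg) was called. No layer 5 and no layer 6 or subplate marker was called, with median log2 differences of -0.09 and -0.49. Of 5 layer 4 markers, 1 was called higher and 1 lower. P100 replicate 2, the lowest library of Lypd6 (18.0 CPM), also had the lowest layer 5 sum, 78.7 CPM. The part of all these markers in the differences of Lypd6 and Chrna7 was not tested.

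**Figure D3:**
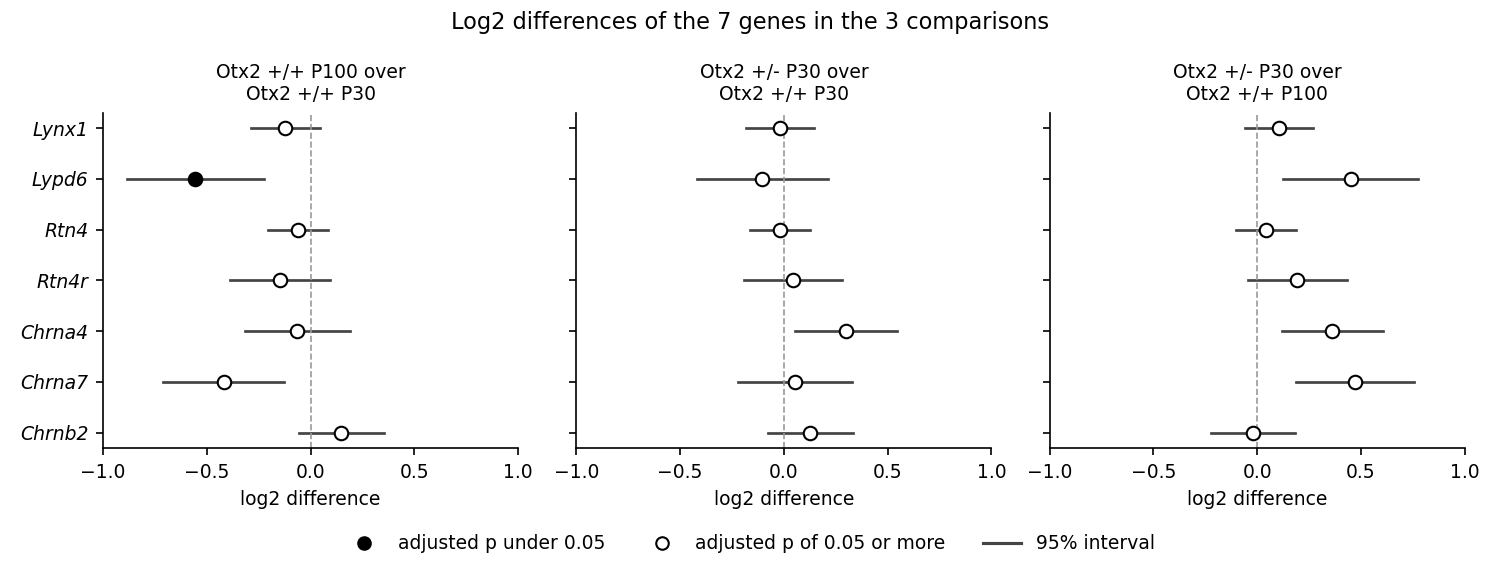
Log2 differences of the 7 genes (points) with their 95% intervals (lines) in Otx2 +/+ P100 over Otx2 +/+ P30, Otx2 +/- P30 over Otx2 +/+ P30 and Otx2 +/- P30 over Otx2 +/+ P100. The filled point is the call at an adjusted p under 0.05, Lypd6 with age at -0.56, and the widest interval of the genotype comparison without a call is that of Lypd6, -0.42 to 0.21.

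The second comparison set Otx2 +/- against Otx2 +/+ cortex at P30 and asks whether the loss of 1 Otx2 copy goes with another level of these genes. None of the 7 genes passed the test, against 3.23% of all tested genes called in either direction, 2.32% lower and 0.903% higher. By DESeq2 and by limma-voom the count was also 0, and 1 gene had an unadjusted p under 0.05, against 17.3% of tested genes. That gene was Chrna4, at 32.9 ± 3.39 CPM in Otx2 +/- and 26.8 ± 2.28 CPM in Otx2 +/+ libraries (SD, n = 2 each). Its log2 difference was 0.30 (SE 0.11, 95% interval 0.05 to 0.54, adjusted p = 0.185). Without Otx2 +/- replicate 2, the library with choroid plexus transcripts, it was 0.40, and without replicate 1 it was 0.19.

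The 6 other genes differed little between the genotypes. Their log2 differences ran from -0.11 for Lypd6 to 0.13 for Chrnb2, with adjusted p of 0.542 to 0.932. Their intervals reached no further than 1.34-fold lower (Lypd6) and 1.26-fold higher (Chrnb2) in Otx2 +/- tissue. Differences within the interval of each gene were not excluded with 2 libraries a group. For Lynx1 the interval was narrower, 1.14-fold lower to 1.11-fold higher, and for Rtn4 it was 1.12-fold lower to 1.09-fold higher. Groups did not overlap for 3 genes, the receptor subunits Chrna4, Chrna7 and Chrnb2, each higher in Otx2 +/-, against 48.9% of tested genes. The activity-regulated markers fell in this comparison too, 6 of 6, while none of the 7 genes of the set was called. Sums of these markers were 412 and 684 CPM in Otx2 +/- against 2251 and 2804 CPM in Otx2 +/+ libraries. Of the 4 layer 5 markers, 1 was called higher in Otx2 +/- tissue (median log2 difference of the 4, 0.48), and of 5 layer 4 markers 1 was called lower (median -0.38). The part of these markers in the values of Chrna4 was not tested.

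The last pair, Otx2 +/- P30 against Otx2 +/+ P100, orders the levels. It differs in age, genotype and sex together, and each of its groups also enters one of the other comparisons, so it adds no independent evidence. None of the 7 genes passed the test, against 5.1% of all tested genes called in either direction, 2.44% higher and 2.66% lower. Unadjusted, 3 had a p under 0.05, against 19.4%, and 5 had groups that did not overlap, against 50.5%. DESeq2 and limma-voom called 0 as well. The 3 genes were higher in Otx2 +/- P30 libraries: Chrna7 had a log2 difference of 0.47 (SE 0.13, adjusted p = 0.0574), Lypd6 had 0.45 (SE 0.15, adjusted p = 0.114) and Chrna4 had 0.36 (SE 0.11, adjusted p = 0.0900). Lypd6 passed without P100 replicate 1 (log2 difference 0.74, adjusted p = 0.0392), but its log2 difference was 0.22 without P100 replicate 2 (adjusted p = 0.521) and 0.31 without Otx2 +/- replicate 1 (adjusted p = 0.519). All 3 passed when no filter on low counts was applied, with adjusted p of 0.00590 to 0.0386. For Lynx1, Rtn4, Rtn4r and Chrnb2 the log2 differences were -0.02 to 0.19. In this pair, 1 of 4 layer 5 markers was called higher (median log2 difference 0.48). So was 1 of the 4 tested layer 6 and subplate markers (median 0.83). Of 5 layer 4 markers, 2 were called lower (median -0.15). The part of these layer markers in the values of Chrna7, Lypd6 and Chrna4 was not tested.

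Transcript models of the genes were compared next. Counts of transcripts of 1 gene repeat the reads of their shared exons, and in genes with several transcripts the second highest reached a median of 0.874 times the highest. Lynx1, Rtn4r, Chrna7 and Chrnb2 each had 1 transcript in the files. Chrna4 had 4 and Rtn4 had 10. Lypd6 had 5, of which 3 models had nearly the same count, at 98.3% or more of the top one in every library. When all transcripts were tested on their own, 4 of the 23 transcripts of the 7 genes were called with age, all lower at P100, against 5.33% of the 56223 transcripts tested. They were these 3 models of Lypd6 (log2 differences -0.55 to -0.54, adjusted p 0.0318 to 0.0376), which share their reads, and 1 short model of Rtn4 described below. None of the 23 was called in either comparison of Otx2 +/- tissue, against 2.7% of transcripts with genotype at P30 and 3.77% against P100. In the authors' deposited tables, none of the 23 transcripts passed, and the lowest adjusted p were 0.414 with age and 0.224 with genotype, the second for a shorter model of Chrna4 (log2 fold change 0.53).

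Rtn4 makes several Nogo proteins. The longest, Nogo-A, owes its length to 1 internal exon of 2361 bases (chr11:29706410-29708770). The shortest, Nogo-C, starts in an exon of its own, 320 bases at chr11:29718563-29718882. Subtracting the count of the transcript that lacks the long exon alone gave the reads that fell in this exon only. They made up 41.9% and 40.2% of the longest transcript's count in Otx2 +/- P30 libraries, 41.4% and 40.8% in Otx2 +/+ P100 libraries and 35.3% and 38.5% in Otx2 +/+ P30 libraries. Both Otx2 +/+ P30 libraries lay below the other 4, which overlapped. A short model at the 3′ end of the gene went the other way, with 25.4% and 25.3% of the longest transcript's count in Otx2 +/- P30 libraries, 25.6% and 25.6% in Otx2 +/+ P100 libraries and 32.2% and 27.6% in Otx2 +/+ P30 libraries. Both shares divide by the same count, which includes the reads of the long exon, so they are not independent. Otx2 +/+ P30 replicate 1 was the highest library for the 3′-end model and the lowest for the long exon. That model is the fourth transcript called with age (log2 difference -0.28, adjusted p = 0.0448), while the transcript with the long exon had -0.06 on the gene level.

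**Figure D4:**
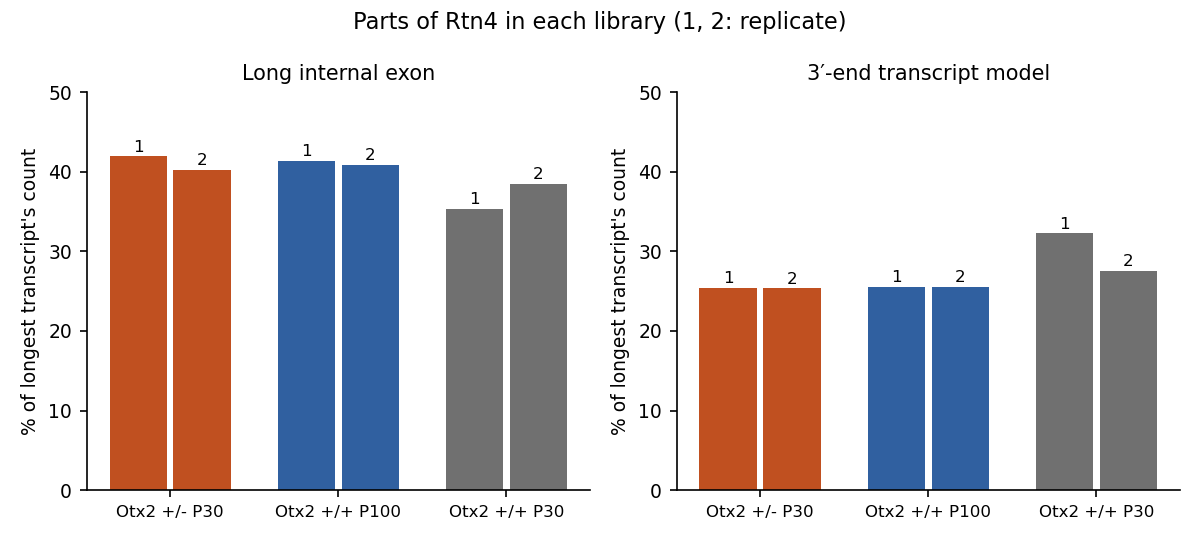
Share of the longest Rtn4 transcript's count that fell in the long internal exon (left) and count of the 3′-end model as a share of it (right), in percent, with 1 bar per library and the replicate number above it. Otx2 +/+ P30 libraries have the lowest shares of the long exon, 35.3% and 38.5%, and the highest of the 3′-end model, 32.2% and 27.6%.

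Counts of the Nogo-C model exceeded those of the model without the long exon by 1059 and 993 in Otx2 +/- P30 libraries, by 910 and 921 in Otx2 +/+ P100 libraries and by 848 and 1037 in Otx2 +/+ P30 libraries. This difference is the net of reads in the Nogo-C first exon over reads in the upstream exons that Nogo-C lacks. It was positive in every library, which places reads in the Nogo-C first exon in all 3 groups.

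Promoter windows of RefSeq (GRCm38.p6, 250 bases before to 50 bases after a gene start) were found for 7 of the 8 symbols, all except Lynx1. Those of Lypd6 and Chrna7, the genes with the largest differences at P100, and of the first and the third RefSeq start of Rtn4, the third being the first base of the Nogo-C exon, are shown 5′ to 3′ on the gene's strand. Capitals mark 3 motifs, searched on both strands. The first is the GC box GGGCGG, read as CCGCCC from the other strand. The next is TAATCC, the homeodomain site that Otx-type factors prefer, read as GGATTA from the other strand. The last is the cyclic AMP response half-site TGACG, read as CGTCA from the other strand. No motifs overlap in these windows.
Lypd6, chr2:50066179-50066478, plus strand: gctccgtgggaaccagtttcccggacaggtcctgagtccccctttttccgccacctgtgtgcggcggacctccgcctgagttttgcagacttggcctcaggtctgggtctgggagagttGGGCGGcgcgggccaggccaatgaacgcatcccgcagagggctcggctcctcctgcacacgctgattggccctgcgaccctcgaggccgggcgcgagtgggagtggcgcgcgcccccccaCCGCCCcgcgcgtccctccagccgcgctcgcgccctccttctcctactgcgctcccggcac
Chrna7, chr7:63212477-63212776, minus strand: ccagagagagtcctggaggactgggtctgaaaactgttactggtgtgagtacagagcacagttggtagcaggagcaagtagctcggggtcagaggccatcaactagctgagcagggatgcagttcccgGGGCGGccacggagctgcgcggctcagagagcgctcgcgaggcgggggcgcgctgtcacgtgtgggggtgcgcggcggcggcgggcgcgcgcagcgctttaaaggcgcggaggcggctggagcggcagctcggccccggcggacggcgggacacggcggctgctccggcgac
Rtn4 first start, chr11:29692648-29692947, plus strand: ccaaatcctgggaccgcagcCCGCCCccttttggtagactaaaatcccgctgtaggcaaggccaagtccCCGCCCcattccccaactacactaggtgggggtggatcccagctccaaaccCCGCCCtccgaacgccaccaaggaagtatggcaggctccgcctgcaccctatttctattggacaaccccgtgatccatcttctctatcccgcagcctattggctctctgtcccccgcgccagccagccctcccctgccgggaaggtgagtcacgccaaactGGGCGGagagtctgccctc
Rtn4 start at the Nogo-C exon, chr11:29718313-29718612, plus strand: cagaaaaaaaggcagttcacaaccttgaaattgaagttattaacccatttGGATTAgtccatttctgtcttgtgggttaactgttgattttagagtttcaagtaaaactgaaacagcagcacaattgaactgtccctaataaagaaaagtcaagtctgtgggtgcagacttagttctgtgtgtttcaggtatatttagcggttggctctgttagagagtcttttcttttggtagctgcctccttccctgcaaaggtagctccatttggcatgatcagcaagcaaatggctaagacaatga

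The Lypd6 window is 71.0% G and C and holds 2 GC boxes. The Chrna7 window is 70.0% G and C and holds 1. The first Rtn4 window is 62.3% G and C with 4 GC boxes, whereas the one at the Nogo-C start is 39.7% G and C and holds none. The median over the 32851 windows of the table is 52.7%. TAATCC was found in 1 of the 4 windows shown, that of the Nogo-C start, as GGATTA, and in 7.06% of all windows. The windows of the set that are not shown (second Rtn4 start, Rtn4r, Chrna4, Chrnb2 and Pirb) do not hold it. GGGCGG was in 35.7% of all windows and TGACG in 20.8%. No TGACG lies in the 4 windows shown, while those of Chrnb2 and Rtn4r hold 1 each. A match describes these letters only.

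Partner genes of the set were read from 7 lists, which include the genes above. Among Ly6/uPAR relatives, 9 of 19 passed the filter. Lypd6 was the 1 called with age. With genotype 1 rose, Lypd1, which encodes a relative of Lynx1 that binds nicotinic receptors. Lypd1 had 99.1 and 69.7 CPM in Otx2 +/- P30 libraries, against 54.2 and 47.0 CPM in Otx2 +/+ P30 libraries (log2 difference 0.74, SE 0.16, adjusted p = 0.0197), and 59.6 and 44.5 CPM in Otx2 +/+ P100 libraries. Its Otx2 +/- libraries lay above all others but differed widely from each other, and without replicate 1 the log2 difference was 0.46 with an adjusted p of 0.207. The adjusted p was 0.156 without Otx2 +/+ P30 replicate 2 and 0.122 by DESeq2, and 18.6% of its exon bases are shared with Gpr39 on the opposite strand. The layer 5 markers were higher in the same Otx2 +/- libraries, at 149 and 136 CPM against 107 and 102 CPM in Otx2 +/+ P30 libraries, and their part in the value of Lypd1 was not tested. Lypd1 was also called higher in Otx2 +/- P30 than in Otx2 +/+ P100 tissue (log2 difference 0.69, adjusted p = 0.0205). That adjusted p reached 0.154 under the alternatives other than leaving out 1 library. Without 1 library, the log2 difference was 0.42 to 0.93, and the call was lost in some of these fits. Ly6e, the highest relative per kilobase after Lynx1, was not called in any comparison (log2 differences -0.26 to -0.12).

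Of the 8 tested nicotinic subunits, none was called in any comparison, with median log2 differences of -0.08 with age, 0.21 with genotype and 0.37 between Otx2 +/- P30 and Otx2 +/+ P100. The medians of all tested genes were 0.00 in each. The 6 tested assembly factors of these receptors, were not called either, with log2 differences of -0.22 to 0.24. They include Vsnl1, a calcium sensor that raises α4β2 receptors at the surface, and Ywhah, a 14-3-3 protein that binds α4, the highest of them per kilobase. Beside them, 3 of 7 tested genes of muscarinic receptors and acetylcholine handling were called with age. Chrm2, a Gi-coupled muscarinic receptor, had 93.7 and 93.2 CPM in Otx2 +/+ P100 libraries, against 48.7 and 63.5 CPM in Otx2 +/+ P30 libraries, and rose (log2 difference 0.73, SE 0.11, adjusted p = 0.00136). It stayed called under each of the 16 alternatives. Chrm4, of the same coupling, fell (log2 difference -0.62, adjusted p = 0.0196), as did Bche, which encodes butyrylcholinesterase (-0.81, adjusted p = 0.0448), but both calls were lost under 4 or more alternatives. For Chrm4 the adjusted p was 0.169 without P30 replicate 2, where the log2 difference was -0.32, and 0.107 and 0.129 without P100 replicates 1 and 2. For Bche it was 0.0748 to 0.183 without any 1 of these 4 libraries. With genotype none of the 7 was called, and Chrm2 was at 47.9 and 47.7 CPM in Otx2 +/- P30 libraries. The Gq-coupled receptor genes Chrm3 and Chrm1, the highest per kilobase among the genes of the list with a known length (Chrm4 has none), were not called in any comparison (log2 differences -0.20 to 0.23).

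In the Nogo receptor complex and its ligands, 13 of 14 genes were tested. Mag, a myelin ligand of the Nogo receptors, had 35.0 and 32.5 CPM in Otx2 +/+ P100 libraries, against 73.3 and 62.5 CPM in Otx2 +/+ P30 libraries, and fell (log2 difference -1.01, SE 0.10, adjusted p = 7.36e-05). It fell with genotype as well, to 46.9 and 46.8 CPM in Otx2 +/- P30 libraries (log2 difference -0.53, SE 0.10, adjusted p = 0.00946), although the adjusted p was 0.0731 without Otx2 +/- replicate 1. The groups did not overlap in either comparison, and Mag also belongs to the 9 myelin markers, 8 of which fell in each, all but Omg. Mag was called higher in Otx2 +/- P30 than in Otx2 +/+ P100 tissue (log2 difference 0.47, adjusted p = 0.0179). That adjusted p reached 0.0598 under the alternatives other than leaving out 1 library. Without 1 library, the log2 difference was 0.42 to 0.53, and the call was lost in several of these fits. Rtn4rl2, a Nogo receptor relative that binds Mag, had 9.19 and 6.86 CPM in Otx2 +/+ P100 libraries, against 11.0 and 15.2 CPM in Otx2 +/+ P30 libraries, and fell (log2 difference -0.71, adjusted p = 0.0364). Leaving out P30 replicate 2, P100 replicate 1 or P100 replicate 2 took its adjusted p to 0.272, 0.0536 and 0.249. Omg, another ligand, was called only between Otx2 +/- P30 and Otx2 +/+ P100, where it was higher (log2 difference 0.34, adjusted p = 0.0304). Without P100 replicate 1 its log2 difference was 0.22 with an adjusted p of 0.263, and without Otx2 +/- replicates 1 and 2 the adjusted p was 0.129 and 0.141. Olfm1, which encodes a secreted ligand of Rtn4r and is the highest of the list per kilobase, was not called in any comparison. Nor was any of the 7 reticulon and endoplasmic reticulum genes, Rtn3, the highest, among them (log2 differences -0.15 to 0.17).

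**Figure D5:**
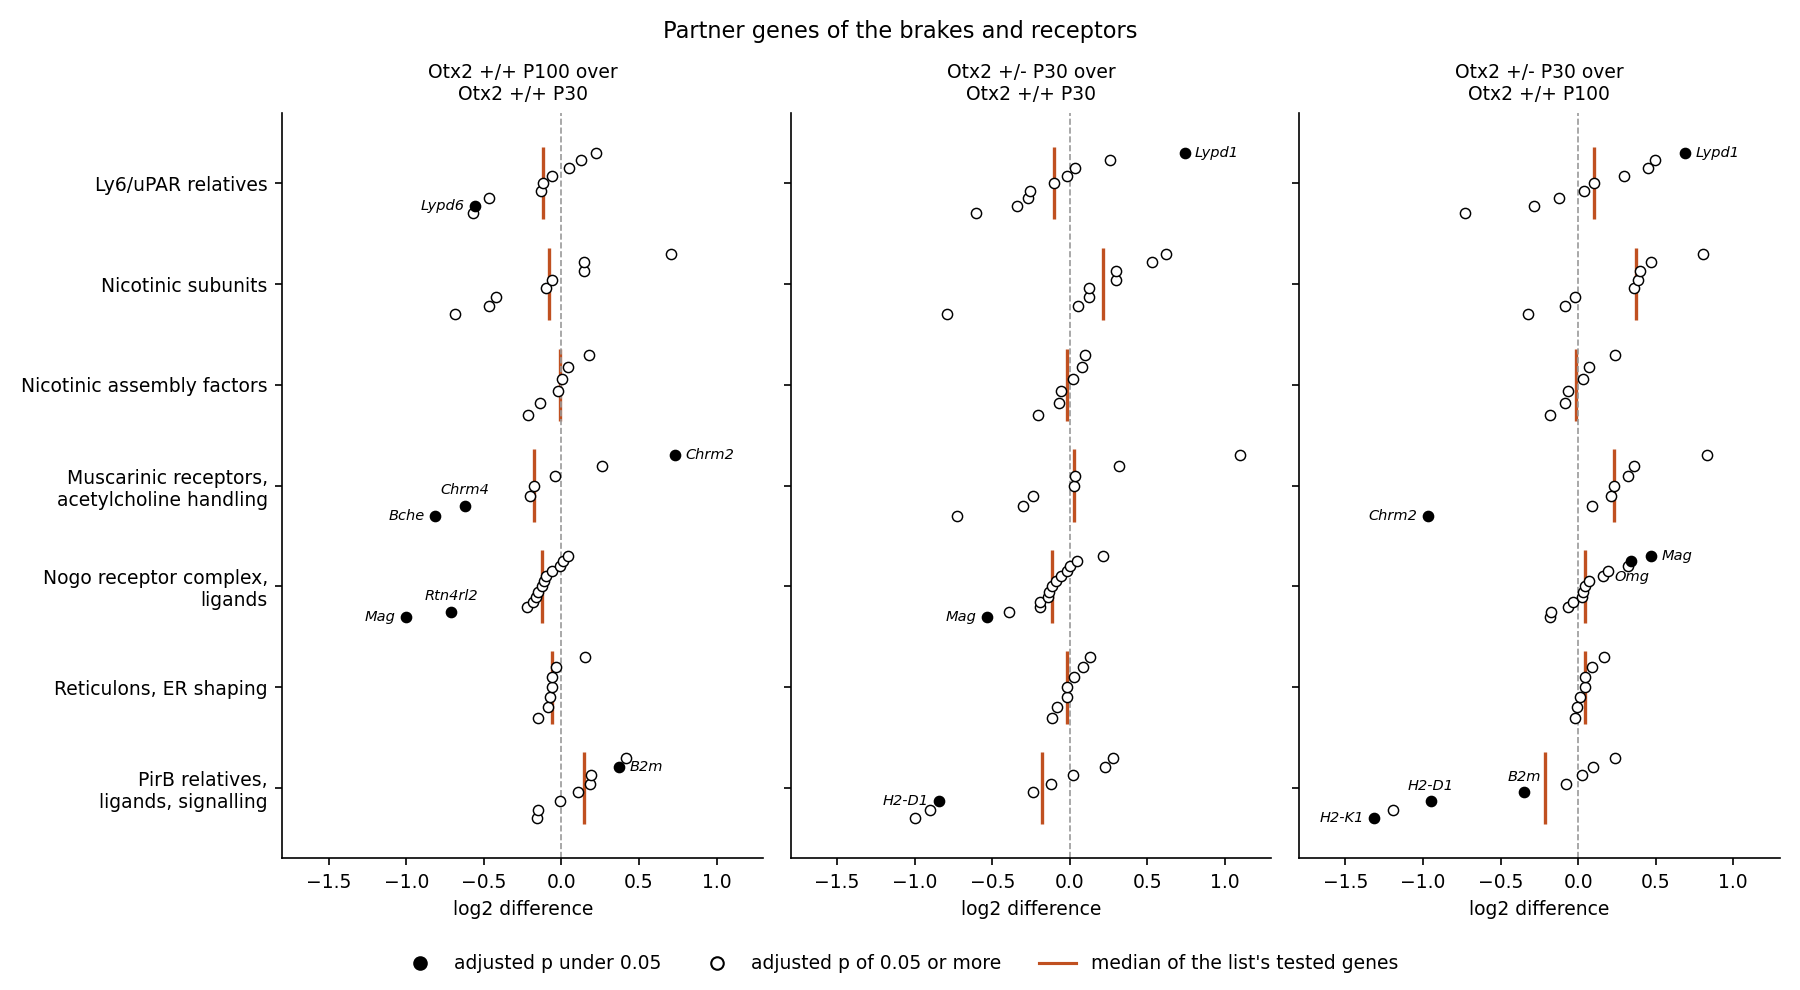
Log2 differences of the tested genes of 7 lists in the 3 comparisons, with 1 point per gene, filled and named where the adjusted p is under 0.05, and the median of each list as a bar. Mag is the lowest point with age at -1.01, Chrm2 is high with age at 0.73 and low in Otx2 +/- P30 over Otx2 +/+ P100 at -0.97, and no reticulon or nicotinic subunit is filled.

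Among relatives, ligands and signalling partners of PirB, 8 of the 12 genes in the files were tested. B2m, the light chain of MHC class I, had 62.6 and 71.9 CPM in Otx2 +/+ P100 libraries, against 50.03 and 53.8 CPM in Otx2 +/+ P30 libraries, and rose (log2 difference 0.37, adjusted p = 0.0308). The heavy chain gene H2-D1 had 5.50 and 5.47 CPM in Otx2 +/- P30 libraries, against 10.9 and 8.97 CPM in Otx2 +/+ P30 libraries, and fell (log2 difference -0.84, adjusted p = 0.0469). Of these 2 calls, that of B2m was lost under 4 of the 16 alternatives and that of H2-D1 under 9. The adjusted p of B2m was 0.135 and 0.0608 without P30 replicates 1 and 2 and 0.219 without P100 replicate 2. That of H2-D1 was 0.0892 to 0.187 without any 1 of the 4 libraries compared. H2-K1, the other classical heavy chain, was at 2.28 and 2.93 CPM in Otx2 +/- P30 libraries, 6.80 and 6.16 CPM in Otx2 +/+ P100 libraries and 4.47 and 5.21 CPM in Otx2 +/+ P30 libraries. It was called only between Otx2 +/- P30 and Otx2 +/+ P100 (log2 difference -1.31, adjusted p = 0.00483, or 0.0532 without P100 replicate 1). H2-D1 (-0.95, adjusted p = 0.0192) and B2m (-0.35, adjusted p = 0.0480) were lower there as well, and each call was lost without P100 replicate 2 or without either Otx2 +/- library, and that of B2m also without P100 replicate 1. H2-D1 and H2-K1 belong to a family of closely similar genes, and counting may split or lose their reads. The mice were of the hybrid stock B6D2 and reads were mapped to mm10. Counts of these genes may therefore also depend on which alleles the pooled mice carried. With genotype at P30, H2-K1 had a log2 difference of -0.90 and was not called, beside -0.84 for H2-D1 and 0.02 for B2m. The part of alleles in these values was not tested. Cfl1, which encodes the actin-severing protein cofilin, was not called (log2 differences 0.09 to 0.28).

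The genes whose levels went most alike over the 6 libraries were read from 12922 genes with a mean of at least 1 CPM, by Pearson's r of log2 CPM. For Lypd6 this was Thra, a thyroid hormone receptor gene (r = 0.996), and for Chrna7 it was Actn2, an α-actinin gene (r = 0.997). The size of a difference does not enter r: with age, Thra had a log2 difference of -0.10 and Actn2 had -0.52, and neither was called. The nearest to Chrna4 was Acyp2, to Chrnb2 it was Vkorc1l1, to Rtn4r it was Faah, to Lynx1 it was Vwa5b2 and to Rtn4 it was Aplp2, with r of 0.986 to 0.996. These values describe 6 libraries that all genes share, each being the highest among many genes, and 12 to 126 genes reached an r of 0.95 with each. Among the 7 genes themselves, the highest r was 0.90 for Lynx1 with Rtn4, and that of Lypd6 with Chrna7 was 0.71.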

How the data were processed

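Total RNA from hand-dissected visual cortical layer IV gave 6 libraries, 2 per group. Reads were mapped with Bowtie to mm10 and counted with HTSeq, and groups were compared with DESeq 1.8.3, per the submitters' processing notes. Tool settings, the release of the annotation and whether strand was used are not given in the sources used here. Raw read counts per Ensembl transcript were deposited, for 95533 transcripts in each library. Their 2 deposited comparison tables give the signal of each group (the mean of counts over size factors), the ratio of groups, its log2 value, and p-values with adjusted p-values; the log2 and p-value columns were used.

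Of the transcripts, 9669 had no gene name and were left out, with 13.96% of the counts. Each of the 34980 genes was represented by its transcript with the highest total count, because transcripts of a gene share reads. Genes were tested with edgeR 4.0.16 in R 4.3.3 (quasi-likelihood test, TMM, filterByExpr with a minimum count of 10 and a minimum total of 15) in 1 fit of 3 groups with 3 residual degrees of freedom, and p-values were Benjamini-Hochberg adjusted over 15841 genes at 0.05. Lengths and exons came from GENCODE M21 (GRCm38), and 15510 of the tested genes had a length. On simulated counts for the age comparison with 200 of 15841 genes changed, the test recovered 58.2%, 79.1% and 95.5% of genes changed 1.5-, 2- and 4-fold, while unchanged genes made up 7.74% of its calls. Between 20094 and 20933 genes were detected per library, and no values of other samples' columns were used. The replicates of each group differed by more than counting noise (chi-square per degree of freedom 4.42 to 5.78).

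Alternatives were DESeq2 1.42.0, limma-voom (limma 3.58.1), other scalings and filters, summed or separate transcripts, a replicate block, the 4 libraries of a comparison alone, and leaving out each library. Named partners are the called genes of 7 lists and, per list, the 2 highest per kilobase; likeness names the gene with the highest r and a mean of at least 1 CPM, leaving out Gm and Rik names. The members and lists were chosen with earlier results of these data known. Precision is set by 2 libraries a group, and limits from counts cover counting error only.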

Additional observations from a re-analysis of the deposited data

How the results depend on the processing

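Of the 16 alternatives, the count of 0 called with genotype did not change under any. With age, the 1 call (Lypd6) became 0 with counts summed over transcripts and 0 to 1 without 1 library; its log2 difference then ranged from -0.85 to -0.33. Between Otx2 +/- P30 and Otx2 +/+ P100, 3 genes were called with no filter, 1 with the replicate block (Lypd6, 0.46, adjusted p = 0.0299) and 0 to 1 without 1 library. The replicate numbers did not pair the libraries (correlations of same-numbered deviations -0.000315, 0.100 and -0.00409), and the block moved the calls over all genes to 1320, 642 and 988, against 1194 with age, 511 with genotype and 808 in the third pair.

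Signs turned only for differences near 0: Chrna4 with age was 0.037 with summed counts and -0.152 to 0.020 without 1 library. In the same ranges without 1 library, Rtn4r with age ran from -0.28 to 0.0073, and with genotype Rtn4r ran from -0.090 to 0.200, Lynx1 from -0.070 to 0.036, Lypd6 from -0.250 to 0.027 and Rtn4 from -0.066 to 0.025. In the third pair, Lynx1 ran from -0.000154 to 0.22 and Rtn4 from -0.012 to 0.099.

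Calls over all genes with age, with genotype and in the third pair were 1860, 1120 and 1473 with no filter, 791, 263 and 502 with summed counts, and 2994, 1520 and 2117 for separate transcripts. Without 1 library they ranged from 351 to 1078, 184 to 473 and 255 to 942. The cause was not tested. With 2 libraries a group, folds within the printed intervals were not excluded, and Pirb was too sparse to compare.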
